A study of Mus musculus with 4 samples.

Results

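In all, 9 named genes of the oligodendrocyte lineage were described: *Pdgfra*, *Cspg4*, *Olig1*, *Olig2*, *Sox10*, *Gpr17*, *Bcas1*, *Enpp6* and *Myrf*. They were chosen by name from the 33981 genes of the deposited tables, and all 9 were found and tested in every comparison. The choice was made with earlier results of these data known, so counts set beside shares over all genes are descriptions. Poly(A) RNA from coronal brain tissue that held the prefrontal cortex was sequenced. Each group had 6 libraries, 24 in all. The labels list 1 sample per group while the deposited tables number 6 libraries in each, so a library was taken to be 1 mouse, and *P*-values measure the spread between these libraries. All mice were male C57BL/6J aged 3 to 5 months. Normotensive (NT) mice were infused with saline for 28 days and hypertensive (HT) mice with angiotensin II, which raises blood pressure, at a daily dose of 0.28 mg/kg. Surgery was performed on day 7 and brains were taken on day 28. Stroke was photothrombotic, that is, a light-activated dye clotted the vessels of the prefrontal cortex, and sham mice had the same surgery without the light. The 4 groups were NT + Sham, HT + Sham, NT + Stroke and HT + Stroke.

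Oligodendrocytes are the cells that wrap axons in myelin, and they arise in the adult brain from dividing precursors that are spread through grey and white matter. *Pdgfra* (the receptor for platelet-derived growth factor A, which drives precursor division) and *Cspg4* (the NG2 proteoglycan of the precursor surface) mark the precursor, while *Olig1*, *Olig2* and *Sox10* encode transcription factors kept through the whole lineage. *Gpr17* (a receptor that is switched on for a short time as precursors commit), *Bcas1* (an early myelin-associated protein) and *Enpp6* (a choline phosphodiesterase of newly forming oligodendrocytes) mark cells in transition. *Myrf* encodes the transcription factor that starts and maintains the myelin gene programme. *Pdgfra* is also expressed by fibroblasts of the meninges and large vessels, and *Cspg4* by pericytes.

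Promoter sequences were read for 4 of the 9 genes from RefSeq (GRCm38.p6). The 250 bases before the start site are shown for *Pdgfra* and *Enpp6*, which had the smallest and the largest change after stroke in both NT and HT mice. Capitals mark the matched motif, an E-box (CANNTG, the class of site bound by OLIG factors) in *Pdgfra* at chr5:75152001-75152250 and a SOX site (ACAAAG or ACAATG, searched on both strands) in *Enpp6* at chr8:46986637-46986886, each on the plus strand.
Pdgfra: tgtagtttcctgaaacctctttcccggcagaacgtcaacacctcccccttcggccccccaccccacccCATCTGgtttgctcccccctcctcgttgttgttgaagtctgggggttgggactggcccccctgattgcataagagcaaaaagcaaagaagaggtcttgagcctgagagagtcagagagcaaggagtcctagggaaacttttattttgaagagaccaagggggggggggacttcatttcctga
Enpp6: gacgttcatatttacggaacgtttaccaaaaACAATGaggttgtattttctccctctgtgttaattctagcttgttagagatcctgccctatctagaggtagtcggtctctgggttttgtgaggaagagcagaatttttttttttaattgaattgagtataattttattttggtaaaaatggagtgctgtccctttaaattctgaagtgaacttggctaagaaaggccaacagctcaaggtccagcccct
The *Pdgfra* window held 1 E-box and 0 SOX matches, and the *Enpp6* window held 0 E-boxes and 1 SOX match. In windows of the same length, *Olig2* (chr16:91225300-91225549) held 0 E-boxes and 1 SOX match and *Cspg4* (chr9:56864854-56865103) held neither. The start sites behind the windows are not always the gene starts printed below. The windows of *Olig2* and *Cspg4* run past those gene starts, and that of *Pdgfra* ends before it. A MYRF site (CTGGCAC or CTGGTAC, either strand) was in none of the 4 windows. Over 32817 promoters of the same length, 66.2% held an E-box, 25.2% a SOX site and 5.92% a MYRF site, so that matches of the first 2 kinds are common and the letters describe these windows without naming a bound factor.

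The libraries held 15922919 to 24865998 counts (median 18497215), and the 9 genes had between 48 counts in the mouse with the lowest *Enpp6* and 4385 counts in the mouse with the highest *Bcas1*. Neuron markers were abundant, with a sum over 8 genes of 5997 to 9033 CPM (counts scaled to library size) in every mouse. Markers of neighbouring regions were also present in every group: the sum of 8 striatal neuron markers was 347 to 2726 CPM and that of 6 olfactory bulb neuron markers was 34.9 to 485 CPM. Because RNA came from whole tissue, more cells of a type and more RNA per cell cannot be told apart. Positions below are on GRCm38. *Gpr17* (ENSMUSG00000052229, chr18:31942997-31949636, minus strand) shares 188 of its 5195 exon bases (3.62%) with *Lims2* on the opposite strand, which averaged 19.1 CPM. Whether the counting used strand is not stated, so a part of the *Gpr17* count may belong to *Lims2*. *Bcas1* (ENSMUSG00000013523, chr2:170346991-170427845, minus strand) overlaps 2 antisense genes, each below 1 CPM. *Pdgfra* (ENSMUSG00000029231, chr5:75152292-75198215, plus strand) and *Olig1* (ENSMUSG00000046160, chr16:91269772-91271933, plus strand) overlap only genes below 0.1 CPM. *Olig2* (ENSMUSG00000039830, chr16:91225457-91228677, plus strand) lies beside *Olig1* on the same chromosome. The other genes are *Cspg4* (ENSMUSG00000032911, chr9:56865033-56899870, plus strand), *Sox10* (ENSMUSG00000033006, chr15:79154908-79165240, minus strand), *Enpp6* (ENSMUSG00000038173, chr8:46986887-47096762, plus strand) and *Myrf* (ENSMUSG00000036098, chr19:10208272-10240748, minus strand).

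Per unit of gene length, the 9 genes differed widely in level. In NT + Sham the median FPKM (reads scaled by gene length and library size, as deposited by the authors) was 52.6 for *Olig1*, 35.0 for *Bcas1*, 18.8 for *Sox10* and 14.2 for *Olig2*. *Gpr17* followed at 6.51, *Myrf* at 4.49, *Pdgfra* at 2.38, *Cspg4* at 2.05 and *Enpp6* at 0.676 FPKM. The transcription factor *Olig1* and the transition gene *Bcas1* were thus the most abundant, and *Enpp6*, also a transition gene, the least. The order of the medians was the same in NT + Stroke and HT + Sham, and in HT + Stroke it differed only in that *Cspg4* (2.49 FPKM) lay above *Pdgfra* (2.39 FPKM). Within each group the values of 2 neighbouring pairs in this order overlapped, *Gpr17* with *Myrf* and *Pdgfra* with *Cspg4*, and the other neighbours did not overlap in any group.

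**Figure D1:**
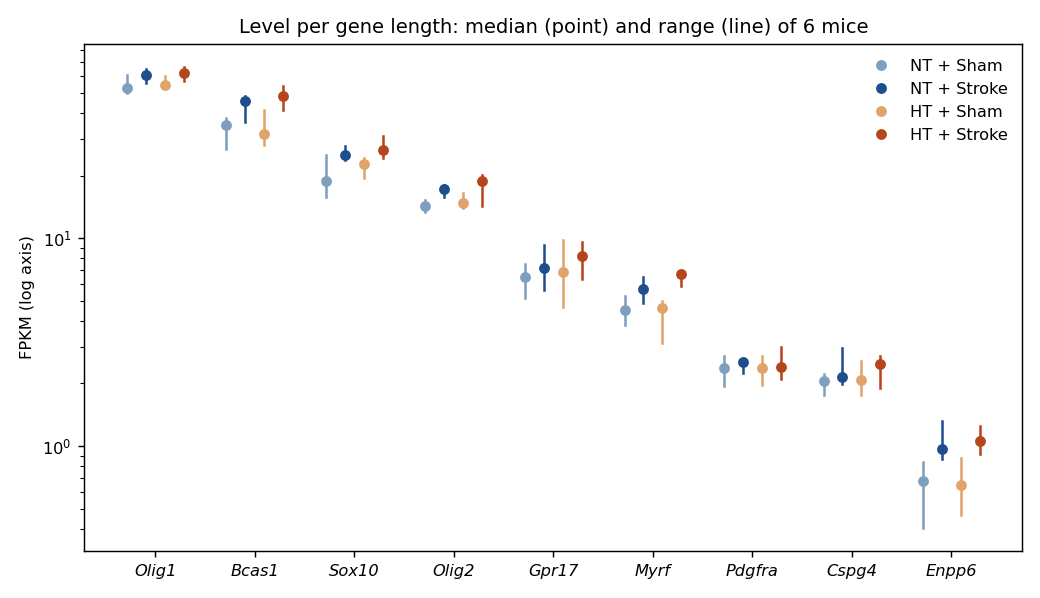
FPKM (log axis) of the 9 genes, ordered by level, in the 4 groups. Points are medians and lines the range of 6 mice, and *Olig1* lies highest (median 52.6 in NT + Sham) and *Enpp6* lowest (0.676).

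The comparison of NT + Stroke vs NT + Sham asks how the lineage stood 28 days into the protocol after stroke alone. *Olig2*, *Sox10*, *Bcas1*, *Enpp6* and *Myrf* were higher after stroke by 1.17- to 1.52-fold, while *Pdgfra*, *Cspg4*, *Olig1* and *Gpr17* did not pass the test. Of the 9 genes, 5 were called higher (edgeR quasi-likelihood test, Benjamini-Hochberg adjusted *P* under 0.05) and 0 lower, where 14.4% of all 16835 genes tested were called higher and 11.5% lower. All 9 had a positive log2 fold change, with a median of 0.22 against −0.01 over all genes, though *Pdgfra* and *Gpr17* turned negative once scores of neighbouring brain regions were in the fit, as described further on.

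*Pdgfra*, the growth factor receptor of precursors, had 19.9, 24.2 and 26.9 CPM (lowest, median and highest of 6 mice) in NT + Sham and 21.8, 24.5 and 25.2 CPM in NT + Stroke. The groups overlapped fully, with a log2 fold change of 0.03 (SE 0.077, 95% confidence interval −0.13 to 0.19, adjusted *P* = 0.838). *Cspg4*, the NG2 proteoglycan, had 21.8, 24.5 and 26.5 CPM in NT + Sham and 23.1, 24.8 and 34.0 CPM in NT + Stroke. Its groups also overlapped apart from 1 high NT + Stroke mouse, with a log2 fold change of 0.12 (SE 0.095, interval −0.08 to 0.32, adjusted *P* = 0.377). Both intervals leave out a 1.52-fold change (0.61 on the log2 scale), the size seen for *Enpp6*.

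Among the transcription factors, *Olig1* had 107, 117 and 132 CPM in NT + Sham and 116, 127 and 138 CPM in NT + Stroke. These ranges overlapped, with a log2 fold change of 0.10 (SE 0.063, interval −0.03 to 0.24, adjusted *P* = 0.253). *Olig2*, its neighbour on the chromosome, had 33.3, 36.6 and 38.8 CPM in NT + Sham and 37.9, 42.4 and 44.0 CPM in NT + Stroke. It rose 1.17-fold (log2 fold change 0.22, SE 0.060, adjusted *P* = 0.0105), with 5 of 6 NT + Stroke mice above every NT + Sham mouse. *Sox10*, which acts with *Olig2* and *Myrf* on myelin genes, had 47.6, 57.4 and 79.7 CPM in NT + Sham and 69.6, 73.5 and 82.6 CPM in NT + Stroke. It rose 1.24-fold (log2 fold change 0.31, SE 0.106, adjusted *P* = 0.0428). The spread was mostly in the sham group, where mice 2 and 3 (76.3 and 79.7 CPM) lay within the stroke range and the other 4 lay below it.

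Among the genes of transition and myelination, *Gpr17* had 27.4, 34.5 and 39.7 CPM in NT + Sham and 28.0, 36.1 and 45.8 CPM in NT + Stroke. The groups overlapped (log2 fold change 0.16, SE 0.106, interval −0.06 to 0.38, adjusted *P* = 0.299). *Bcas1* had 100.3, 133 and 145 CPM in NT + Sham and 131, 168 and 178 CPM in NT + Stroke. It rose 1.26-fold (log2 fold change 0.33, SE 0.085, adjusted *P* = 0.0079), with 4 of 6 NT + Stroke mice above every NT + Sham mouse. *Enpp6*, the gene of newly forming oligodendrocytes, had 2.66, 4.31 and 5.35 CPM in NT + Sham and 5.38, 6.00 and 8.28 CPM in NT + Stroke. It rose 1.52-fold (log2 fold change 0.61, SE 0.166, adjusted *P* = 0.0113) and was the only member whose groups did not overlap, although the gap was narrow, where 7.47% of all genes lay wholly above sham. *Myrf*, the myelin gene regulator, had 34.1, 38.4 and 45.3 CPM in NT + Sham and 40.2, 46.8 and 53.4 CPM in NT + Stroke. It rose 1.2-fold (log2 fold change 0.26, SE 0.080, adjusted *P* = 0.0204).

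Of these calls, 2 were lost in at least 1 removal of a single mouse. *Sox10* lost its call in 10 of 12 removals of 1 mouse (adjusted *P* 0.0509 to 0.0881), the exceptions being NT + Sham mice 2 and 3. Its log2 fold change was 0.26 to 0.40 over the 12 removals. *Myrf* lost its call without NT + Stroke mouse 6 (adjusted *P* = 0.0573), which had its highest value. *Olig2*, *Bcas1* and *Enpp6* kept theirs in all 12 removals.

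**Figure D2:**
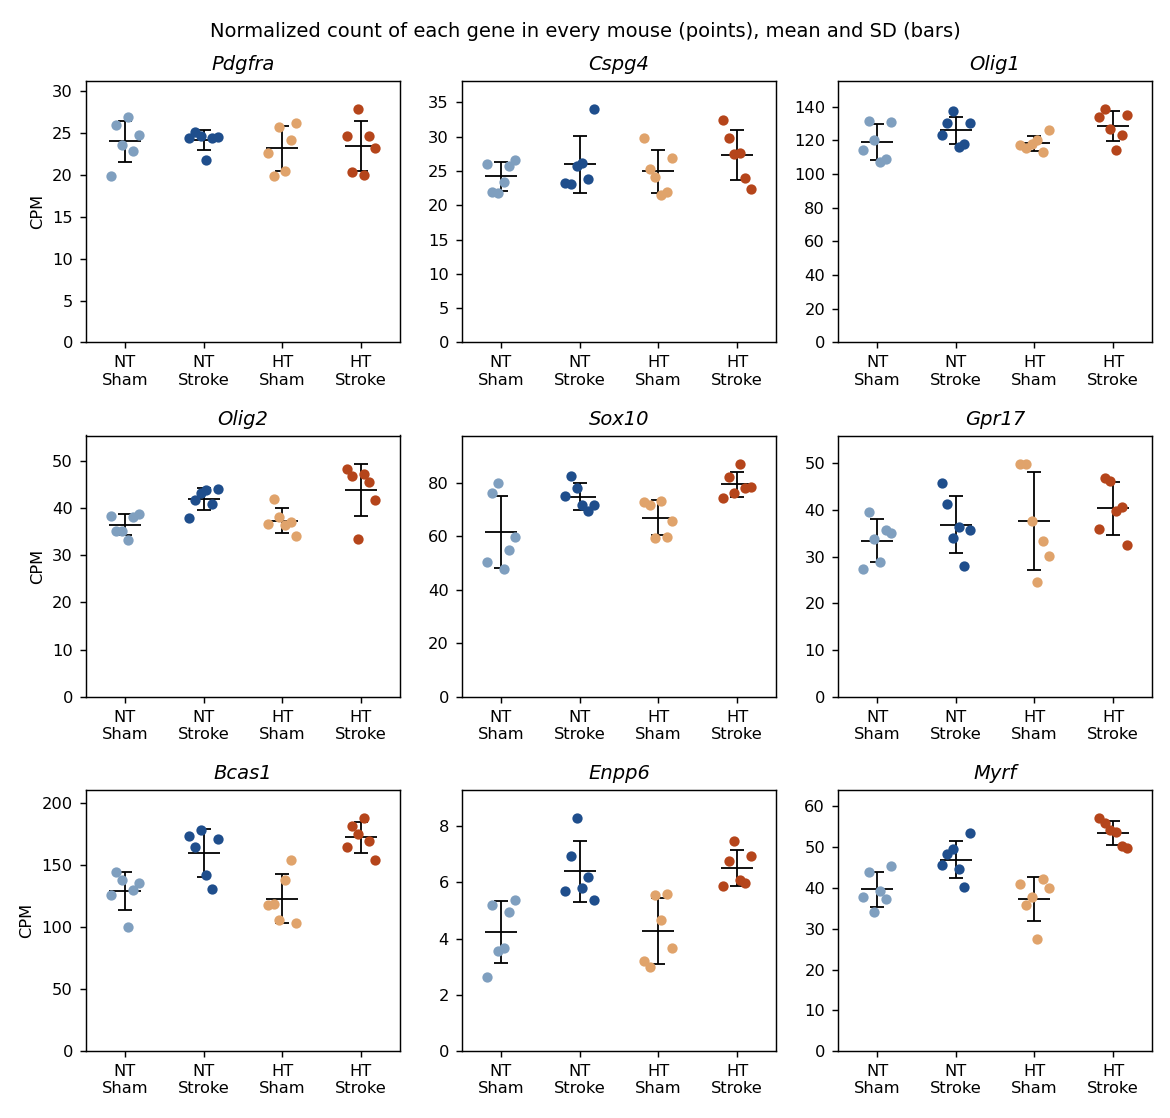
CPM of each gene (vertical axes, starting at 0) in every mouse of the 4 groups. Points are mice and bars are the mean and SD of 6 mice. *Pdgfra* lies at about the same height in all 4 groups (19.8 to 27.9 CPM), and *Enpp6* in both stroke groups lies above every sham mouse of the same infusion.

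The comparison of HT + Stroke vs HT + Sham put the same question in hypertensive mice, in libraries that the NT comparison did not use. *Bcas1* and *Myrf* were higher after stroke, by 1.42- and 1.45-fold, and the remaining 7 genes did not pass the test, although all 9 log2 fold changes were again positive (median 0.25 against 0.00 over all genes, with *Gpr17* turning negative under the region scores). Few genes passed in this comparison as a whole: 0.544% of 16741 genes were called higher and 0.102% lower, against 2 of 9 members higher.

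*Bcas1* had 103, 119 and 154 CPM in HT + Sham and 154, 173 and 188 CPM in HT + Stroke. The groups met at 154 CPM, where the highest sham mouse lay just above the lowest stroke mouse, and the gene rose with a log2 fold change of 0.51 (SE 0.095, adjusted *P* = 0.0272). *Myrf* had 27.5, 38.8 and 42.2 CPM in HT + Sham and 49.8, 53.9 and 57.0 CPM in HT + Stroke. No mouse overlapped, and the gene rose with a log2 fold change of 0.54 (SE 0.092, adjusted *P* = 0.018).

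*Enpp6* had 2.99, 4.16 and 5.57 CPM in HT + Sham and 5.88, 6.41 and 7.46 CPM in HT + Stroke. The groups were separate, and the log2 fold change of 0.63 (SE 0.165, interval 0.28 to 0.98) was close to the 0.61 of NT mice, but the adjusted *P* was 0.0798. *Sox10*, with 59.2, 68.6 and 73.0 CPM in HT + Sham and 74.2, 78.3 and 87.2 CPM in HT + Stroke, was likewise separate between groups (log2 fold change 0.27, SE 0.077, adjusted *P* = 0.0994). *Myrf*, *Enpp6* and *Sox10* were the 3 members without overlap, against 0.591% of all genes.

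*Olig2* had 34.0, 36.7 and 41.9 CPM in HT + Sham and 33.5, 46.1 and 48.3 CPM in HT + Stroke (log2 fold change 0.25, SE 0.088, adjusted *P* = 0.152). HT + Stroke mouse 3 lay at 33.5 CPM and the other 5 at 41.6 CPM or above, and without mouse 3 the adjusted *P* was 0.04996. *Olig1* had 113, 117 and 126 CPM in HT + Sham and 114, 130.2 and 139 CPM in HT + Stroke (log2 fold change 0.14, interval 0.0023 to 0.27, adjusted *P* = 0.286). Its groups overlapped, with 4 of 6 HT + Stroke mice above every HT + Sham mouse. *Gpr17* had 24.6, 35.5 and 49.9 CPM in HT + Sham and 32.5, 40.3 and 46.9 CPM in HT + Stroke. It varied more among HT + Sham mice (SD 10.4 CPM) than in the other groups (SD 4.57 to 6.10 CPM), and its log2 fold change was 0.12 (interval −0.23 to 0.47, adjusted *P* = 0.761).

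The precursor genes again lay near their sham level. *Pdgfra* had 19.8, 23.4 and 26.3 CPM in HT + Sham and 20.1, 23.9 and 27.9 CPM in HT + Stroke (log2 fold change 0.03, interval −0.17 to 0.24, adjusted *P* = 0.905). *Cspg4* had 21.5, 24.7 and 29.8 CPM in HT + Sham and 22.4, 27.6 and 32.4 CPM in HT + Stroke (log2 fold change 0.15, interval −0.07 to 0.37, adjusted *P* = 0.502). Both genes overlapped between groups over most of their range.

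In HT mice calls were also lost in some removals of 1 mouse. The log2 fold changes stayed at 0.46 to 0.58 for *Bcas1* and 0.45 to 0.57 for *Myrf* over all 12 removals. *Bcas1* lost its call in 6 of 12 removals (HT + Sham mice 1, 2, 3 and 4 and HT + Stroke mice 2 and 4, adjusted *P* 0.0599 to 0.103) and *Myrf* in 4 of 12 (HT + Sham mice 1 and 3 and HT + Stroke mice 2 and 4, adjusted *P* 0.0509 to 0.0795). In the removals that ended a call, only 9 to 50 genes were called in all, against 108 with every mouse. With all 4 groups in 1 fit, or with DESeq2, 4 members were called in HT mice in place of 2. The calls over all genes also rose, from 108 of 16741 to 1125 of 17608 with 1 fit and 907 of 18594 with DESeq2.

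No difference between infusions was detected for any of the 9 genes. In HT + Sham vs NT + Sham, 0 members passed at an adjusted or at an unadjusted *P* under 0.05, where 0% of 16581 genes passed after adjustment and 8.03% before it. The log2 fold changes ran from −0.07 (*Myrf*, interval −0.28 to 0.13) to 0.18 (*Gpr17*, interval −0.17 to 0.52), and the interval of *Enpp6* was −0.40 to 0.44. With 6 mice per group, changes within these intervals are not excluded. In HT + Stroke vs NT + Stroke, 0 members passed after adjustment, as did 0% of 17008 genes, and 1 member passed before it, against 7.23% of all genes. That member was *Myrf*, whose median was 46.8 CPM in NT + Stroke mice and 53.9 CPM in their HT counterparts, a log2 fold change of 0.18 (interval 0.04 to 0.33, unadjusted *P* = 0.0155 and adjusted *P* = 0.654 by edgeR). The other 8 ran from −0.05 (*Pdgfra*) to 0.13 (*Gpr17*).

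The interaction of hypertension and stroke tests whether the stroke difference itself depends on the infusion. It passed after adjustment for 0 members and 0% of 17608 genes, and before adjustment for 1 member and 10.4% of genes. The member was again *Myrf*, whose stroke difference was 0.26 larger in HT mice on the log2 scale (interval 0.01 to 0.52, unadjusted *P* = 0.0448, adjusted *P* = 0.466 by edgeR). *Bcas1* had an interaction of 0.17 (interval −0.10 to 0.45) and the precursor gene *Pdgfra* one of 0.00 (interval −0.25 to 0.25). The larger number of calls in NT mice is thus not a shown difference between NT and HT mice.

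HT + Stroke vs NT + Sham combines both factors and shares its control mice with the NT comparison. *Olig2*, *Sox10*, *Bcas1*, *Enpp6* and *Myrf* were called higher, 5 of 9 where 8.38% of 16749 genes were. Their log2 fold changes were 0.29 (SE 0.083, adjusted *P* = 0.0296) for *Olig2*, 0.40 (SE 0.114, 0.0309) for *Sox10*, 0.44 (SE 0.083, 0.0096) for *Bcas1*, 0.65 (SE 0.165, 0.0191) for *Enpp6* and 0.46 (SE 0.073, 0.0070) for *Myrf*. The precursor gene *Pdgfra* was at −0.01 (interval −0.21 to 0.19), and *Cspg4* (0.20), *Olig1* (0.14) and *Gpr17* (0.30, adjusted *P* = 0.0682) did not pass. Removal of 1 mouse ended the call of *Olig2* in 7 of 12 cases (NT + Sham mice 1 to 4 and HT + Stroke mice 2, 4 and 5) and that of *Sox10* in 6 of 12 (NT + Sham mice 1, 4, 5 and 6 and HT + Stroke mice 2 and 4). It also brought *Gpr17* under the threshold in 3 (NT + Sham mouse 2 and HT + Stroke mice 1 and 6).

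Markers of the striatum had a higher median in both stroke groups. A striatal score, the mean log2(CPM + 1) of 8 striatal neuron markers, had a median of 6.22 in NT + Sham and 7.11 in NT + Stroke, and of 5.93 in HT + Sham and 7.30 in HT + Stroke. The score of 6 olfactory bulb markers had a median of 3.45 in NT + Sham and 4.38 in NT + Stroke, and of 4.44 in HT + Sham and 3.32 in HT + Stroke, so that its order in NT and HT mice was opposite. All 8 striatal markers had a positive log2 fold change in both stroke comparisons (median 0.71 in NT and 1.35 in HT mice) without passing after adjustment. Before adjustment, 0 of 8 had a *P* under 0.05 in NT mice and 8 of 8 in HT mice (edgeR). The share of all genes under that unadjusted threshold was not counted for these 2 comparisons. Of 5 tested olfactory bulb markers, 3 rose in NT + Stroke, where 14.4% of all genes did. Within groups, the deviation of *Bcas1* from its group mean went with that of the striatal score at Pearson's r = 0.52 (Spearman's rho 0.49, 24 libraries), that of *Olig1* at 0.50 and that of *Sox10* at 0.40, while *Pdgfra* was at −0.04 and *Cspg4* at −0.03. With the olfactory bulb score the deviations of 8 of the 9 genes had a negative r, from −0.03 (*Gpr17*) to −0.46 (*Olig1*), with *Bcas1* at −0.32 and *Olig2* at −0.32, and *Pdgfra* was at 0.16. These are descriptions, over libraries that also differ in depth and may differ in dissection, which the labels do not record.

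With both scores as covariates, 0 of the 9 genes passed in any comparison. In NT mice the log2 fold change was then 0.29 for *Olig2*, 0.20 for *Sox10*, 0.28 for *Bcas1* and 0.31 for *Myrf*. These were close to the values without the scores apart from *Sox10*, but the intervals were wider. They were 0.05 to 0.54 for *Olig2*, −0.14 to 0.54 for *Sox10*, 0.0006 to 0.55 for *Bcas1* and 0.01 to 0.61 for *Myrf*. The adjusted *P* of these genes was 0.234 to 0.676 (edgeR). *Enpp6* was at 0.37 (interval −0.24 to 0.98). In HT mice *Myrf* was at 0.50 (interval 0.17 to 0.83, adjusted *P* = 0.429), *Bcas1* at 0.36 (interval 0.02 to 0.69, adjusted *P* = 0.472) and *Enpp6* at 0.37 (interval −0.20 to 0.94). *Gpr17* was at −0.04 in NT mice (interval −0.48 to 0.40) and −0.16 in HT mice (interval −0.72 to 0.39), and *Pdgfra* at −0.03 and 0.15. The number of genes called in all also fell, from 4365 to 623 in NT mice and from 108 to 0 in HT mice.

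**Figure D3:**
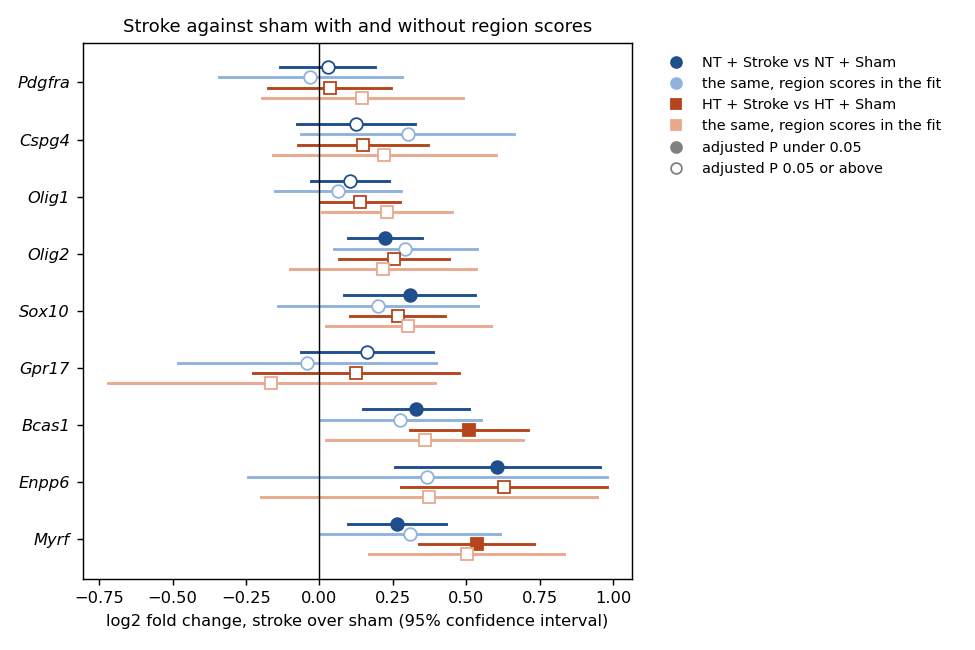
Log2 fold change of stroke over sham (horizontal axis) for each gene in NT mice (circles) and HT mice (squares), without region scores (dark) and with them in the fit (pale). Lines are 95% confidence intervals and filled symbols have an adjusted *P* under 0.05. No symbol is filled once the scores are in the fit, and *Myrf* in HT mice stays at 0.50.

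Other genes of the lineage were read from lists by stage. Over all genes tested, 14.4% were called higher and 11.5% lower in NT + Stroke, and 0.544% and 0.102% in HT + Stroke. Of 14 further precursor markers, 4 rose and 2 fell in NT + Stroke. *Matn4* (a matrix protein of precursors) rose from 15 to 25.7 CPM (means, log2 fold change 0.79, adjusted *P* = 3.82e-06), and *C1ql1* (a secreted synaptic protein, 0.45), *Lhfpl3* (0.38) and *Cacng4* (an auxiliary protein of glutamate receptors, 0.33) rose less. *Megf11* (−0.33) and *Susd5* (−0.54) fell, and these 2 of 14 are near the 11.5% of all genes called lower. The list thus moved in both directions, with a median of 0.10 and 9 of 14 positive. In HT + Stroke its median was −0.08 with 6 of 14 positive, and *Cacng4* (0.38) was the 1 precursor marker called.

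Of 11 markers of committed and newly formed cells, 4 rose in NT + Stroke and 0 fell (list median 0.20). They were *Bmp4* (a secreted signal of committed precursors, log2 fold change 0.78, adjusted *P* = 0.000115), *Tcf7l2* (a Wnt effector, 0.48), *Tns3* (0.39) and *Itpr2* (a calcium channel of the endoplasmic reticulum, 0.36). None of the 11 passed in HT + Stroke, where *Bmp4* was at −0.04 and 2 genes had an unadjusted *P* under 0.05, without a count of the share over all genes.

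All 14 myelin genes had a positive log2 fold change in NT and in HT mice, with medians of 0.19 and 0.50. In NT + Stroke, 5 rose: *Aspa* (0.49), *Cldn11* (tight junctions of the myelin sheath, 0.46), *Cnp* (0.30), *Mbp* (myelin basic protein, 0.30) and *Mobp* (0.27). In HT + Stroke, 6 rose: *Cnp* (0.56), *Mag* (0.54), *Mog* (0.53), *Cldn11* (0.51), *Fa2h* (an enzyme of myelin lipids, 0.50) and *Mbp* (0.49). Myelin genes made up 6 of the 108 genes called in HT mice.

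Regulators of differentiation had members that rose and members that fell. Of 10 that promote differentiation, *Chd7* (a chromatin remodeller, 0.49), *Zfp488* (0.56) and *Qk* (an RNA-binding protein of myelin transcripts, 0.19) rose in NT + Stroke and *Nkx6-2* (0.55) in HT + Stroke. Of 10 that hold differentiation back, *Id4* (0.43) and the Notch ligand *Jag1* (0.51) rose in NT + Stroke while *Lingo1* (−0.47) and *Sox5* (−0.41) fell, and 0 passed in HT + Stroke. In NT mice 2 higher and 2 lower of 10 are near the shares over all genes (14.4% and 11.5%). *Lingo1* and *Sox5* are also expressed by neurons.

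Of 13 tested growth factors and receptors that act on precursors, 5 rose in NT + Stroke. *Igf1*, also made by activated microglia, rose from 9.04 to 25.7 CPM (1.53 on the log2 scale), and *Cxcr4*, a chemokine receptor also carried by immune cells, from 1.6 to 6.53 CPM (2.03). *Fgfr1* (0.57), *Erbb3* (0.48) and *Fgfr2* (0.37) rose as well. The 3 tested ligand genes of platelet-derived growth factor receptors did not pass, with *Pdgfa* at −0.10, *Pdgfb* at 0.04 and *Pdgfc* at −0.23. Of 6 tested proliferation genes, *Mki67* rose from 1.02 to 2.06 CPM and the other 5 did not pass. That 1 of 6 is near the 14.4% of all genes called higher in NT + Stroke. No gene of these 2 lists passed in HT + Stroke. There 3 of the growth factor genes and 1 proliferation gene had an unadjusted *P* under 0.05, without a count of the share over all genes.

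**Figure D4:**
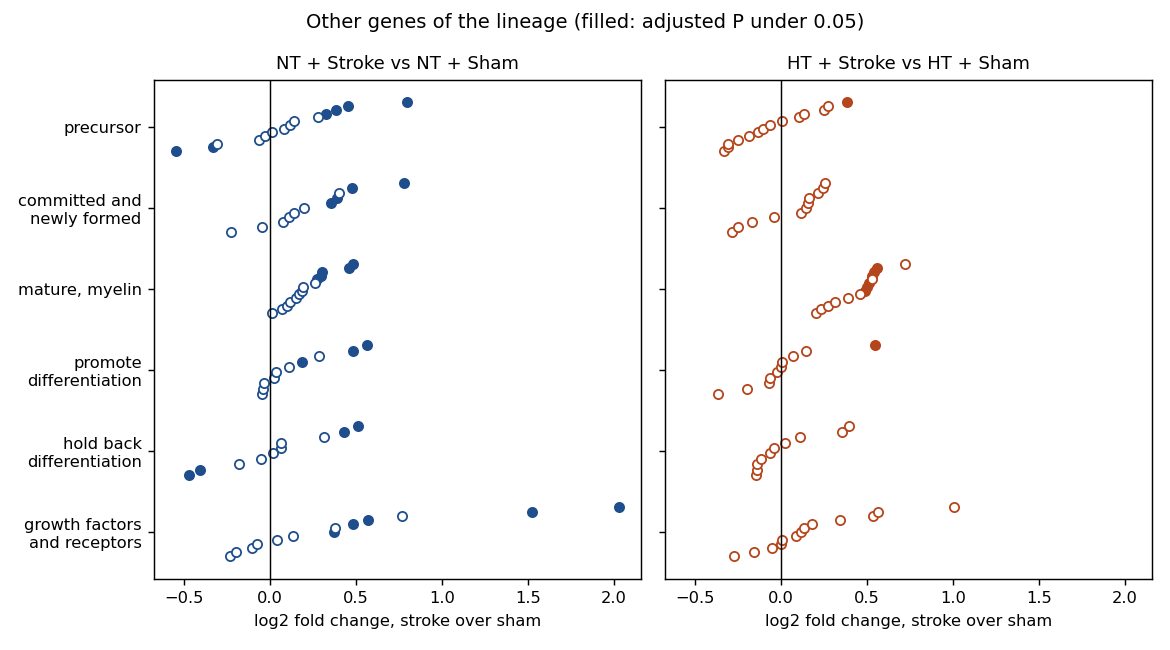
Log2 fold change of stroke over sham (horizontal axis) for the tested genes of 6 lists in NT mice (left) and HT mice (right). Each point is a gene and filled points have an adjusted *P* under 0.05. All 14 mature genes lie to the right of 0 on both sides, and precursor markers lie on either side of it.

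Markers of other cell types moved with stroke in the same libraries. In NT + Stroke, 11 of 11 fibroblast markers, 9 of 10 microglia and macrophage markers, 5 of 11 tested pericyte and smooth muscle markers, 5 of 8 astrocyte markers and 2 of 7 endothelial markers rose, and 4 of 8 neuron markers fell while 1 rose. Over all genes tested there, 14.4% were called higher and 11.5% lower. In HT + Stroke 0 genes of these lists passed, and 5 fibroblast, 9 microglia, 3 pericyte, 2 astrocyte, 1 endothelial and 2 neuron markers had an unadjusted *P* under 0.05. The share of all genes under that threshold was not counted in HT mice, so the smaller of these counts cannot be told from it. The summed level of the microglia list was 306 to 350 CPM in NT + Sham, 515 to 938 in NT + Stroke, 307 to 474 in HT + Sham and 380 to 1010 in HT + Stroke, with no marker at 0. That of the fibroblast list was 1036 to 1518 CPM in NT + Sham, 1978 to 3364 in NT + Stroke, 818 to 2662 in HT + Sham and 1211 to 2846 in HT + Stroke. That of the pericyte list was 284 to 316, 361 to 407, 304 to 360 and 303 to 413 CPM in the same order. *Pdgfra* and *Cspg4*, which fibroblasts and pericytes also carry, were at 0.03 and 0.12 on the log2 scale in NT + Stroke. There *Dcn* (fibroblasts) was at 2.47, in a list with a median of 1.25. *Pdgfrb* (pericytes) was at 0.66, above the pericyte and smooth muscle median of 0.27. That list ran from −0.01 to 1.82, and its other genes did not all rise. The part of these cell types in the values of the 9 genes was not tested.

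The members did not move as 1 unit between mice of a group. Over 24 libraries, the deviations of log2 CPM from the group means of the 9 genes were paired at Pearson's r between −0.61 (*Pdgfra* with *Olig2*) and 0.52 (*Cspg4* with *Myrf*). *Bcas1* and *Enpp6* went most closely with the myelin list, at r = 0.74 and 0.70 with the mean log2(CPM + 1) of its 14 genes. *Olig1* was at 0.46, *Sox10* at 0.29, *Myrf* at 0.17, *Pdgfra* at 0.11 and *Olig2* at 0.07, and *Gpr17* was at −0.12 and *Cspg4* at −0.26. Among 15486 genes, those most like *Bcas1* were *Mog* (r = 0.86), *Mobp* (0.85) and *Cldn11* (0.79), all of the myelin list. Those most like *Enpp6* were 9630013A20Rik (0.82), *Fa2h* (0.80) and *Fam172a* (0.79). The genes most like *Pdgfra* were *Golm1* (0.89), *Nipbl* (0.83) and *Slco3a1* (0.78), and those most like *Cspg4* were *Cad*, *Mroh1* and *Lonp1* (0.72 to 0.77). For *Olig1* they were *Plekhb1*, *Rasd1* and *Dnali1*, for *Olig2* they were *Gnl1*, *Tubb5* and *Sult4a1*, and for *Sox10* they were *Ell*, *Rnf7* and *Mospd3*. *Gpr17* was most like *Eif4ebp2*, *Safb* and *Pik3cd*, and *Myrf* most like *Top3b*, *Kcnt1* and *Abl1*. The correlations are descriptions, since both values of a point come from 1 library with its own depth and a dissection that the labels do not record.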

How the data were processed

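Whole-number counts per gene, not normalized, and FPKM were deposited by the authors, who mapped the reads to the mouse genome of Ensembl. The submitters' notes name featureCounts 1.5.0-p3 and DESeq2 1.20.0. The aligner and genome build are not given in the sources used here, and gene positions equal those of GENCODE M21 for all 9 genes. The tables' own fold changes, P-values and 56 columns of normalized counts and group means were not used. The 4 tables were joined by gene ID. The test was edgeR 4.0.16 (R 4.3.3), two-sided robust quasi-likelihood, on the 2 groups compared or on all 4 for the interaction. It followed TMM scaling and filterByExpr at a count of 10 and a total of 15. P-values were adjusted by Benjamini-Hochberg over every gene tested. CPM uses TMM-scaled totals. The script was tested on simulated counts. Intervals are 95%.

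The 9 genes and 15 gene lists were chosen with earlier results of these data known. The named genes are all 9, and from each list up to 4 with the smallest P in NT + Stroke vs NT + Sham, and, named after their values were seen, the other genes called in a list and the PDGF ligands. For each of the 9 genes, the 3 genes with the highest r of deviations were named, among those averaging 1 CPM or more. Alternatives were DESeq2 1.42.0, other scalings and filters, limma 3.58.1 on log2(FPKM + 1) and log2(FPKM + 0.1), 1 fit for all groups, region scores, the library number as a block, and each library left out. Library numbers were not used as pairs in the main test.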

Additional observations from a re-analysis of the deposited data

Results flagged for a closer look

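Over 36 sets of 6 values (9 genes in 4 groups), 2 held a mouse set apart from its group by Dixon's ratio at the 95% level, where chance sets apart about 1 in 20. *Pdgfra* in NT + Stroke mouse 4 was 21.8 CPM, below the next lowest mouse at 24.4 CPM (gap over range 0.781). *Cspg4* in NT + Stroke mouse 6 was 34.0 CPM, above the next highest mouse at 26.1 CPM (gap over range 0.721). Neither gene passed the test in NT + Stroke vs NT + Sham with or without any single mouse.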

How the results depend on the processing

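For NT + Stroke vs NT + Sham, the number of the 9 genes called was 5 and stayed between 4 and 6 under the alternatives tried, apart from region scores as covariates (0), and was 3 to 5 when 1 mouse was left out (3 without NT + Stroke mouse 6). For HT + Stroke vs HT + Sham it was 2, and 4 with DESeq2, 4 with all 4 groups in 1 fit, 0 with region scores, and 0 to 3 when 1 mouse was left out. For HT + Stroke vs NT + Sham it was 5, and 0 with region scores, 3 with the library number as a replicate block, and 3 to 6 when 1 mouse was left out. It was 0 for HT + Stroke vs NT + Stroke, HT + Sham vs NT + Sham and the interaction under every alternative and removal. The cause of these changes was not tested. The number of all genes called in HT + Stroke vs HT + Sham was 108 of 16741 tested. It was 907 of 18594 with DESeq2, 1125 of 17608 with all 4 groups in 1 fit and 179 of 32562 without a filter. Of the same 16741 genes, 67 were called without scaling, 68 with limma on log2(FPKM + 1) and 46 with the block. In NT + Stroke vs NT + Sham it was 4365 and 623 with region scores, and in HT + Stroke vs NT + Sham 2470, 0 with region scores and 770 with the block. DESeq2 called 22 genes, none of them a member, for the interaction.

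With the library number as a block, 5 and 2 members were called in the NT and HT stroke comparisons. Same-numbered libraries correlated at −0.52 to 0.39, with 2 or 3 of 6 pairs above 0.1 in each pair of groups. Differently numbered libraries were not compared with them, so these values cannot decide whether the numbers pair the mice. No batch or date was given in the labels. Log2 fold changes of *Sox10* in NT mice ran from 0.20 to 0.38 over 10 alternatives and of *Enpp6* from 0.30 to 0.67. The log2 fold change of *Gpr17* was −0.04 in NT mice and −0.16 in HT mice with region scores, and its sign was otherwise positive. *Enpp6* rests on 48 to 164 counts per mouse, the fewest of the 9 genes.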
